A study of Mus musculus with 8 samples.

Results

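The genes described here encode the core, loader and accessory subunits of the cohesin complex and a pair of DNA topoisomerases, 10 genes in all: *Smc1a*, *Smc3*, *Rad21*, *Stag1*, *Stag2*, *Nipbl*, *Pds5a*, *Pds5b*, *Top1* and *Top2b*. They are 10 of 10766 genes with a measurable probe. Every probe that the array's annotation assigns to 1 of the symbols was taken, which gave 30 of the 45281 probes on the array. A signal could be matched to 29 of the 30, and 28 were kept, out of 19841 probes kept in all. A probe was kept when its detection p, the chance of such a signal from negative control beads, was under 0.05 on at least 4 of the 8 arrays. Each probe was described apart, because the probes of *Top1* differ.

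The samples were EGFP positive cells sorted by FACS from the dissected spleen of mouse embryos at E12.5 (strain C57BL/6J;129). In the 4 *Bapx1* null samples, which the labels write as *Bapx1* HOMO, EGFP was inserted behind the start codon of *Bapx1*, a homeobox transcription factor gene now named *Nkx3-2*. In the 4 *Bapx1* wildtype samples EGFP sat behind an IRES within the 3' UTR of an otherwise intact *Bapx1*, an allele that the study writes as heterozygous. EGFP thus reads the *Bapx1* promoter in both, and the reporter allele, its copies and the genotype change together and cannot be told apart. The methods call the 4 samples of a genotype biological replicates, and the number of embryos behind each is not given. Each sample was read on 1 single-colour BeadChip, and the number of arrays limits the precision.

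Cohesin is a ring that holds DNA. *Smc1a* and *Smc3* encode its long ATPase arms, *Rad21* the kleisin that closes the ring, and *Stag1* and *Stag2* alternative subunits that bind the kleisin. *Nipbl* encodes the loader that places the ring on chromatin, and *Pds5a* and *Pds5b* encode accessory subunits that act both in stabilizing the ring and in its release. The ring holds sister chromatids together until division and extrudes chromatin loops between divisions. Topoisomerases relieve the twist that replication, transcription and such loops put into DNA: *Top1* encodes an enzyme that cuts 1 strand, and *Top2b* encodes the enzyme of resting and dividing cells that cuts both.

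Null arrays detected 19019 to 19681 probes and wildtype arrays 19267 to 20152, and the mean signal was 302.4 to 398.1 on null and 361.7 to 472.5 on wildtype arrays. Of the spleen mesenchyme markers on the array, *Nkx2-5*, *Barx1*, *Nkx2-3* and *Tcf21* were detected on all 8 arrays and *Tlx1* was not kept. Their levels were not steady between the genotypes: *Nkx2-5* differed by -2.31 and *Nkx2-3* by -0.70 on the log2 scale, with every null array below every wildtype array (adjusted p = 8.89e-05 and 0.000962), *Barx1* by 1.48 with every null array above (adjusted p = 0.000267), and *Tcf21* by 0.05 (adjusted p = 0.752). The targeted gene was read by 2 probes, ILMN_2687592 and ILMN_2687594, whose signals were at least 3.76-fold and 2.97-fold higher in null cells, where it was detected on 4 of 4 arrays, against 0 of 4 in wildtype cells (a fold against a genotype below background uses the lowest detected signal of each array). Where these probes lie relative to the inserted EGFP is not given, so these probes by themselves do not check the labels. RNA of other cells moved with the arrays: the summed signal of 4 erythroid markers was 232.6 to 9591 in null and 255.3 to 1611 in wildtype cells. That of 5 endothelial markers was 137.8 to 839.7 in null and 275.1 to 504.5 in wildtype cells. Among these *Tek* was lower in null cells without overlap, at -1.41 (adjusted p = 1.44e-05). *Pecam1*, *Cdh5*, *Emcn* and *Cldn5* had differences above 0 and did not pass. For 2 neural and neural crest markers, *Sox10* and *Elavl4*, the summed signal was 115.1 to 663.9 in null and 76.9 to 123.4 in wildtype cells. Only *Sox10* was higher in null cells, at log2 2.62 (adjusted p = 0.019), and null replicate 4 overlapped the wildtype arrays. *Elavl4* was at -0.10 and did not pass (adjusted p = 0.643). *Cdh1* and *Krt8* of the pancreatic epithelium list were higher in null cells. *Cpa1* of that list was at 0.24 and did not pass (adjusted p = 0.301), and *Pdx1* and *Ptf1a* were not kept. The part of these cells and of the changed mesenchyme markers in the results was not tested. In sorted bulk samples, fewer cells of a type and less RNA per cell cannot be told apart.

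Cohesin and topoisomerase probes were lower in null cells or did not pass the test, and none was higher. Of the 28 kept probes 17 were lower in null cells (60.7%), where 20.3% of all kept probes were lower, and 0 were higher, where 21.6% of all kept probes were (limma, adjusted p under 0.05 over 19841 probes, 41.9% of which were called in either direction). At an unadjusted p under 0.05 the number higher was 0 as well, and it was 0 by the methods' t-test, which for 2 genotypes is the same test as the analysis of variance that the methods name. Of all probes called, 48.5% were lower, and this split was 69.6% with median centring and 26.9% with median absolute deviation (MAD) scaling of the arrays. The log2 difference was below 0 at 27 of the 28 probes and its median was -0.56, beside 0.04 over all kept probes. In 14 of the 28 every null array lay below every wildtype array and in 0 above, which holds for 18.2% and 20.1% of all kept probes. MAD scaling, the scaling of the study's methods, moved the median of all probes to 0.29. Under it the median of the 28 probes was -0.09, 14 of them lay below 0, and 9 were lower in null cells, beside 8.47% of all probes. A difference over 2-fold was passed by 6 of the 28 probes, all lower, beside 5.54% of all kept probes lower and 3.52% higher by that much. Of the 10 genes 8 had at least 1 lower probe, beside 23.8% of all genes, and *Rad21* and *Top2b* had none. More probes give more chances of a call: among genes with 1 kept probe it was 2 of 4 members beside 14.8% of all such genes, and among genes with several it was 6 of 6 beside 38.4%.

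**Figure D1:**
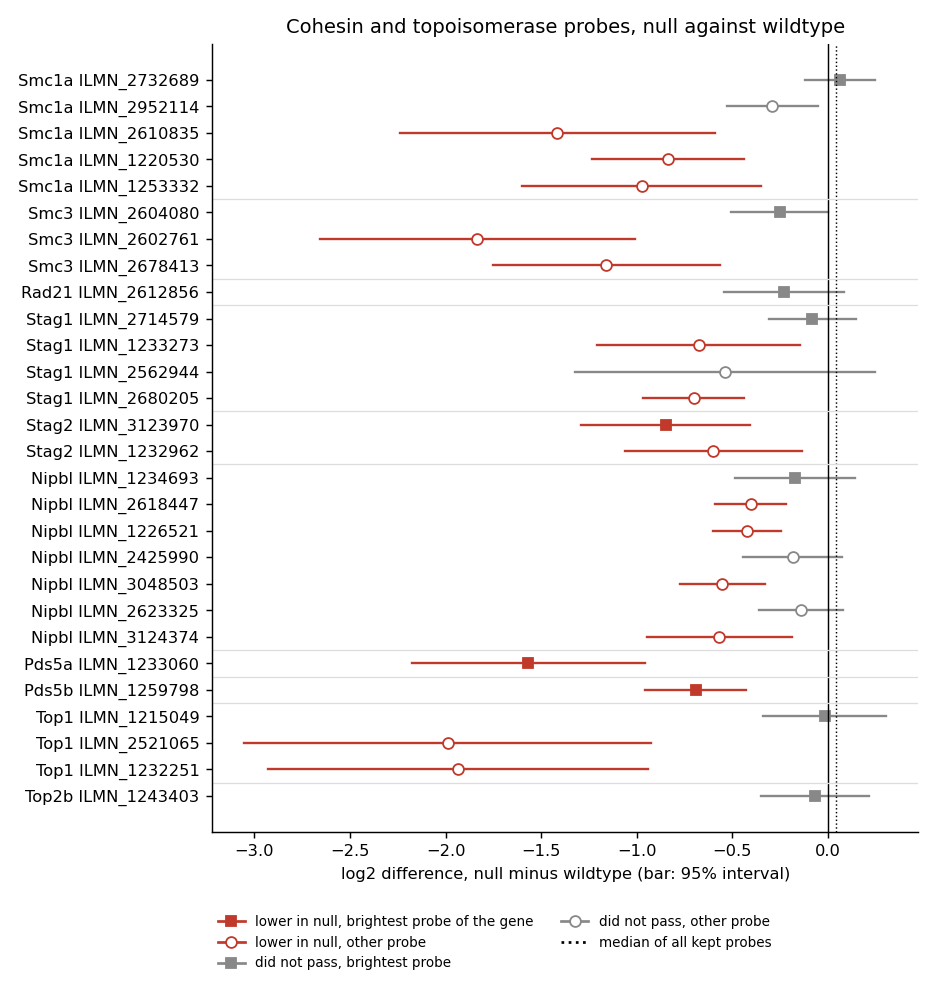
Log2 difference, null minus wildtype, of each kept probe with its 95% interval, grouped by gene; squares mark the brightest probe of a gene and circles its other probes, red those lower in null cells. 17 of 28 probes were lower, 9 of 28 under MAD scaling, and the brightest probe of a gene mostly lay nearer 0 than its others.

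The brightest probe of a gene gave another count than its other probes. Among the 10 brightest probes 3 were lower (*Stag2*, *Pds5a* and *Pds5b*), beside 16.8% of the brightest probes of all genes, with a median difference of -0.20 beside 0.09. Among the 18 other probes 14 were lower (77.8%), beside 27.0% of such probes of all genes, with a median of -0.64 beside -0.07. The wildtype mean of the 17 lower probes ran from 5.48 to 11.46 (median 7.88), and that of the 11 that did not pass from 6.04 to 12.37 (median 10.95), all as log2 intensity. Lower calls thus lay at bright and at dim probes, with the lower median level, and the part of brightness in the call was not tested.

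The arms of the ring showed a bright probe that did not pass beside dim ones that were lower. *Smc1a* was read by 5 probes. At ILMN_2732689, its brightest, the log2 intensity was 12.11, 12.08, 12.10 and 12.03 in null cells (replicates 1 to 4), against 12.10, 11.96, 12.08 and 11.93 in wildtype cells. The genotypes overlapped, and the difference was 0.06 (SE 0.08, 95% interval -0.12 to 0.25, adjusted p = 0.565). At ILMN_2610835 it was 6.98, 6.19, 5.43 and 7.28 in null cells, against 8.17, 7.80, 7.51 and 8.05 in wildtype cells. Here every null array lay below every wildtype array, null replicate 3 lowest, and the fall was 2.67-fold (log2 -1.42, SE 0.37, adjusted p = 0.0144). ILMN_1220530 was lower without overlap too (log2 -0.84, SE 0.18, adjusted p = 0.0064). At the dimmest *Smc1a* probe, ILMN_1253332, detected on 2 of 4 null arrays, the genotypes overlapped at log2 -0.97 (adjusted p = 0.0211; -0.60 with a background offset of 50 in place of 16 and -1.61 in the deposited value table), and the call was lost without null replicate 1, wildtype replicate 2 or wildtype replicate 4 (adjusted p 0.0539 to 0.0637). ILMN_2952114 did not pass, at -0.29 (adjusted p = 0.0506), although its null arrays all lay below the wildtype arrays, and it passed without null replicate 4 (adjusted p = 0.0173).

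*Smc3*, which encodes the partner arm, gave the same picture at 3 probes. Its brightest probe, ILMN_2604080, read 11.49, 11.14, 11.37 and 11.53 in null cells, against 11.56, 11.61, 11.56 and 11.82 in wildtype cells. The genotypes did not overlap, and the difference of -0.25 did not pass (SE 0.11, adjusted p = 0.0994). ILMN_2602761 read 5.73, 4.82, 4.68 and 6.23 in null cells, against 7.46, 7.05, 6.59 and 7.69 in wildtype cells, without overlap. It was detected on 2 of 4 null and on all wildtype arrays, and it was lower at log2 -1.83 (SE 0.37, adjusted p = 0.00498). With null arrays at background, its size depended on the setting, at -1.24 with an offset of 50 and -2.86 in the value table. ILMN_2678413 was also detected on 2 of 4 null arrays and was lower without overlap (log2 -1.16, SE 0.26, adjusted p = 0.00855), at -0.68 with an offset of 50 and at -2.69 in the value table, where it did not pass (adjusted p = 0.0572). A 4th probe, ILMN_1223531, is among those with no matched signal.

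*Rad21*, the kleisin gene, did not pass at its 1 probe. It read 9.14, 8.65, 9.20 and 9.18 in null cells, against 9.20, 9.21, 9.20 and 9.46 in wildtype cells, and only null replicate 2 stood clearly below the wildtype arrays. The difference was -0.23 (SE 0.14, 95% interval -0.54 to 0.08, adjusted p = 0.208).

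The alternative STAG subunits differed from each other at their brightest probes. *Stag2* read 10.09, 9.69, 9.74 and 10.41 in null cells at ILMN_3123970, against 10.94, 10.90, 10.40 and 11.09 in wildtype cells. Null replicate 4 was level with wildtype replicate 3, the other arrays lay apart, and the fall was 1.80-fold (log2 -0.85, SE 0.20, adjusted p = 0.00925). The second *Stag2* probe, ILMN_1232962, was lower by 0.60 on the log2 scale (SE 0.20, adjusted p = 0.0417), a call lost without each of 6 arrays, all but null replicate 4 and wildtype replicate 3 (adjusted p 0.0651 to 0.11). Both *Stag2* calls were lost under MAD scaling, at -0.24 and -0.21 (adjusted p = 0.534 and 0.511).

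*Stag1* read 10.94, 10.76, 10.72 and 11.05 at ILMN_2714579, its brightest probe, in null cells, against 10.93, 11.04, 10.86 and 10.96 in wildtype cells. The arrays of both genotypes were mixed, and the difference was -0.08 (SE 0.10, adjusted p = 0.543). The difference of *Stag1* minus that of *Stag2* was 0.77 on the log2 scale (SE 0.16, exact permutation test over 70 splits, two-sided p = 0.0286, also after adjustment over 3 pairs of paralogs, the smallest the design allows). Dimmer *Stag1* probes lay lower. ILMN_2680205 was detected on 0 of 4 null arrays, so its fall was at least 1.26-fold (adjusted p = 0.00236). It was kept through its 4 wildtype arrays alone, so the filter set its direction and this p is no support. It is still counted among the lower probes, those without overlap and the probe pairs that differed. ILMN_1233273 was lower at -0.68 (adjusted p = 0.0443; -0.42 with an offset of 50 and -1.06 in the value table), and ILMN_2562944 was at -0.54 (adjusted p = 0.239). The call at ILMN_1233273 was lost without each of 7 arrays, all but null replicate 4 (adjusted p 0.0615 to 0.113). The contrast of both STAG genes was tested at their brightest probes only.

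*Nipbl*, the loader gene, was read by 7 kept probes, of which 4 were lower. ILMN_1226521 read 10.95, 10.92, 10.93 and 10.94 in null cells, against 11.32, 11.42, 11.27 and 11.42 in wildtype cells. The null arrays lay within a narrow band below all wildtype arrays, and the fall was 1.34-fold (log2 -0.42, SE 0.08, adjusted p = 0.00377). ILMN_2618447 and ILMN_3048503 were lower without overlap by 0.40 and 0.55 on the log2 scale (adjusted p = 0.00536 and 0.00317). Under MAD scaling these 3 probes lay at 0.31, 0.35 and 0.04, in the opposite direction, and did not pass. The dimmest, ILMN_3124374, was lower by 0.57 (adjusted p = 0.0251), a call lost without null replicate 2, null replicate 3, wildtype replicate 1 or wildtype replicate 4 (adjusted p 0.0508 to 0.0717). The other 3 kept probes, the brightest among them, lay between -0.14 and -0.18 and did not pass. The last *Nipbl* probe on the array, ILMN_2440428, was detected on 0 of 8 arrays.

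Both PDS5 genes were lower in null cells. *Pds5b* read 10.76, 10.51, 10.54 and 10.87 in null cells, against 11.36, 11.35, 11.19 and 11.55 in wildtype cells. No array overlapped, and the fall was 1.61-fold (log2 -0.69, SE 0.12, adjusted p = 0.00251). Under MAD scaling the same probe lay at 0.02 and did not pass. *Pds5a* read 5.45, 5.23, 5.05 and 5.98 in null cells, against 7.26, 6.93, 6.32 and 7.47 in wildtype cells, again without overlap. It was dim, detected on 3 of 4 null arrays, and lower by 2.96-fold (log2 -1.57, SE 0.27, adjusted p = 0.00272), with -1.50 under MAD scaling, -1.07 with an offset of 50 and -2.12 in the value table. The difference of *Pds5a* minus that of *Pds5b* was -0.88 (SE 0.22, exact permutation test, p = 0.0286, adjusted p = 0.0286). With an offset of 50 it was -0.39 (exact p = 0.0571), and it was -1.52 under MAD scaling and -1.51 in the value table.

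The probes of *Top1* held both large falls and a difference near 0. Their falls were the largest among the members under quantile scaling, whereas under MAD scaling a *Smc3* probe (-1.75), and in the value table probes of *Smc3*, *Stag1* and *Pds5a*, lay lower. *Top1* was read by 3 probes. At ILMN_1215049, the brightest, the log2 intensity was 9.92, 9.41, 10.04 and 9.76 in null cells, against 9.78, 9.67, 9.74 and 9.998 in wildtype cells. The genotypes were mixed and the difference was -0.02 (SE 0.14, 95% interval -0.34 to 0.31, adjusted p = 0.936).

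The other *Top1* probes fell nearly 4-fold. ILMN_2521065 read 7.93, 6.89, 6.36 and 8.69 in null cells, against 9.64, 9.54, 8.76 and 9.88 in wildtype cells. ILMN_1232251 read 7.90, 6.94, 6.38 and 8.53 in null cells, against 9.66, 9.37, 8.71 and 9.76 in wildtype cells. On both, every null array lay below every wildtype array, null replicate 3 was lowest and wildtype replicate 3 was the lowest of its genotype. The falls were 3.97-fold (log2 -1.99, SE 0.47, adjusted p = 0.0102) and 3.83-fold (log2 -1.94, SE 0.44, adjusted p = 0.00863), and -1.65 and -1.60 under MAD scaling. Which part of the *Top1* transcript each probe reads is not known here, since probe sequences and positions were not used.

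*Top2b* read 10.42, 9.89, 10.19 and 10.31 in null cells, against 10.21, 10.21, 10.24 and 10.42 in wildtype cells. The arrays overlapped, and the difference was -0.07 (SE 0.12, 95% interval -0.35 to 0.21, adjusted p = 0.686). Its paralog *Top2a*, the topoisomerase of dividing cells, read 10.05, 9.89, 8.84 and 10.49 in null cells, against 11.27, 11.23, 10.99 and 11.35 in wildtype cells. At this probe, its brightest, *Top2a* was lower without overlap (log2 -1.39, SE 0.30, adjusted p = 0.00669). Its difference minus that of *Top2b* was -1.32 (SE 0.35, exact permutation test, p = 0.0286, adjusted p = 0.0286). A second *Top2a* probe, ILMN_1255436, was lower without overlap too, but at -0.45 (adjusted p = 0.00662). The contrast with *Top2b* was tested at the brightest probes only, and its size depends on the probe.

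**Figure D2:**
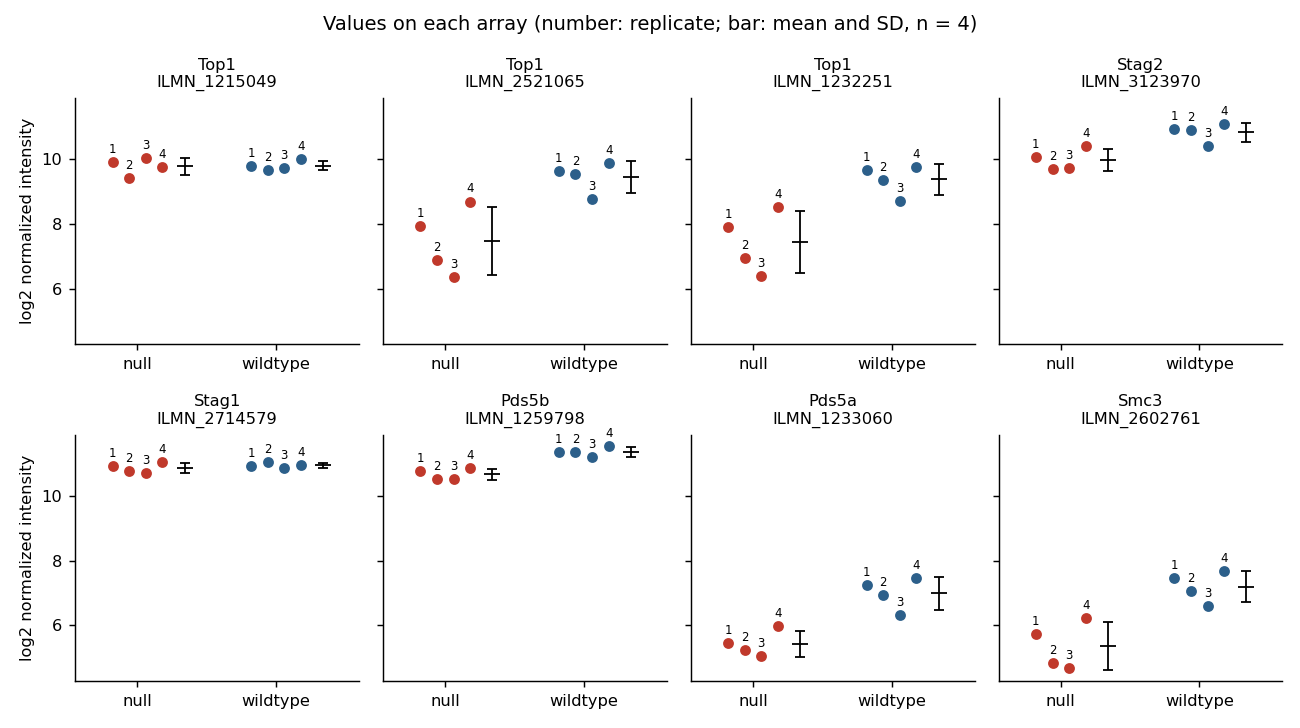
Log2 normalized intensity on each array (numbers are replicates, null left and wildtype right, bars mean and SD, n = 4) for 8 probes. The brightest *Top1* probe was level, at -0.02, while its other probes differed by -1.99 and -1.94, and the brightest *Stag1* probe was level beside that of *Stag2*.

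Whether probes of 1 gene give different genotype differences was tested directly, as the log2 value of each other probe minus that of the brightest probe on the same array. Of the 18 probe pairs of the members, 9 differed between the genotypes (limma, adjusted p under 0.05 over 5897 pairs), beside 29.7% of all pairs. In all 9 the other probe was the lower in null cells, beside 21.3% of all pairs in that direction and 8.38% in the opposite one. The median over the 18 pairs was -0.53, beside -0.09 over all pairs. *Top1* had the largest, -1.97 (SE 0.49, adjusted p = 0.0207) at ILMN_2521065 and -1.92 (SE 0.46, adjusted p = 0.0189) at ILMN_1232251. The disagreement of the *Top1* probes was known from these same arrays before the test was chosen. Both *Top1* pairs, which count among the 9, thus describe that disagreement and are no separate support for it. *Smc3* followed with -1.58 at ILMN_2602761 and -0.91 at ILMN_2678413 (adjusted p = 0.013 and 0.0217). In *Smc1a* 3 of 4 pairs differed, between -1.48 and -0.90, and in *Stag1* 2 of 3, at -0.62 and -0.60. The -0.62 belongs to ILMN_2680205, which was kept through its wildtype arrays alone. *Nipbl* had 0 of 6 (1 at an unadjusted p under 0.05), between -0.40 and 0.03, and the 1 pair of *Stag2* was at 0.25 (adjusted p = 0.102). The pair count was 9 under MAD scaling too, beside 29.2% of all pairs. It depended on single arrays, as did the share of all pairs. Without null replicate 2 it was 4 of 18 beside 17.6% of all pairs, and without wildtype replicate 1 it was 4 beside 14%. Without wildtype replicate 2 it was 3 beside 14.6%, and without wildtype replicate 4 it was 2 beside 10.9%. The last 2 counts are near the share of all pairs.

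**Figure D3:**
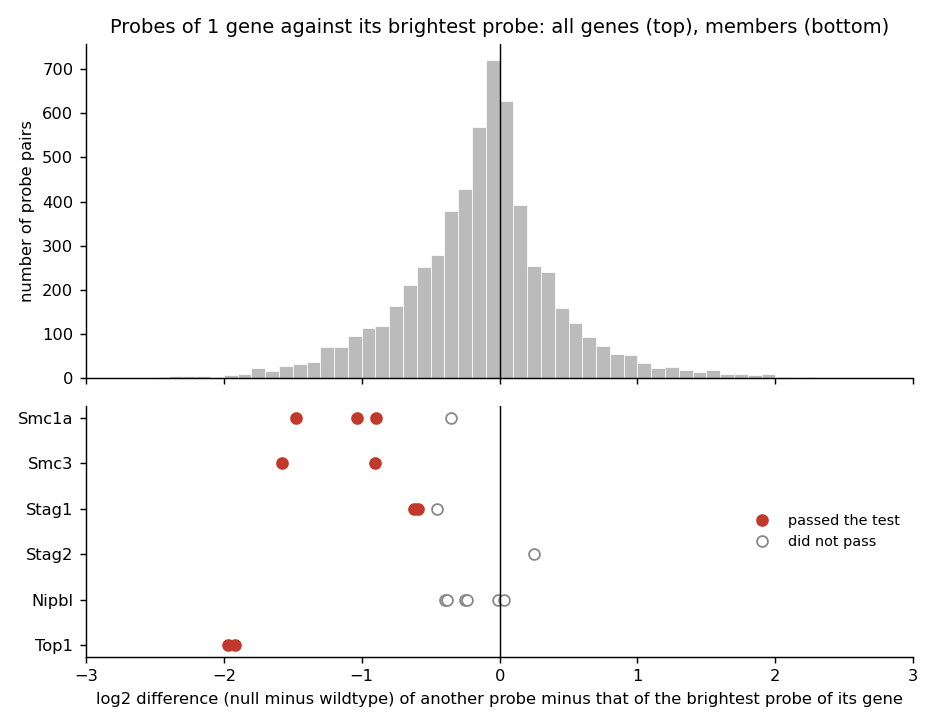
Log2 difference between the genotypes of another probe minus that of the brightest probe of its gene, for all 5897 pairs (top, number of pairs in bins of 0.1) and the 18 member pairs by gene (bottom, red where the test was passed). The 9 pairs that passed all lie below 0, those of *Top1* farthest.

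The members moved with the arrays within each genotype. The mean of the 18 other probes, relative to the wildtype mean, was -0.71, -0.99, -1.10 and -0.57 in null cells and -0.01, 0.05, -0.25 and 0.20 in wildtype cells. Null replicates 2 and 3 were lowest and wildtype replicate 3 was the lowest wildtype array. The mean of 35 splicing regulator genes was lowest on the same arrays, at -0.41, -0.69, -0.77 and -0.34 in null cells and 0.08, -0.02, -0.17 and 0.11 in wildtype cells. Without these 3 arrays 15 member probes were lower and 9 pairs differed, beside 16.7% of all probes and 22.9% of all pairs. With the splicing mean as a covariate 0 of the 28 probes were lower, where 2.88% of all probes were, and the member median was 0.06. With it 0 pairs differed, where 0.102% of all pairs did (4 probes and 6 pairs at an unadjusted p under 0.05). With so few calls over all features, counts of 0 are not particular to the members. The splicing mean did not itself overlap between the genotypes. Not every probe followed these arrays. At *Smc1a* ILMN_1253332 and ILMN_1220530 and at *Stag1* ILMN_2562944, null replicate 4 was the lowest array and null replicate 2 or 3 the highest null one. The same held at *Nipbl* ILMN_1234693, the brightest of all member probes, with 11.85 in null replicate 4 and 12.43 in null replicate 3.

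**Figure D4:**
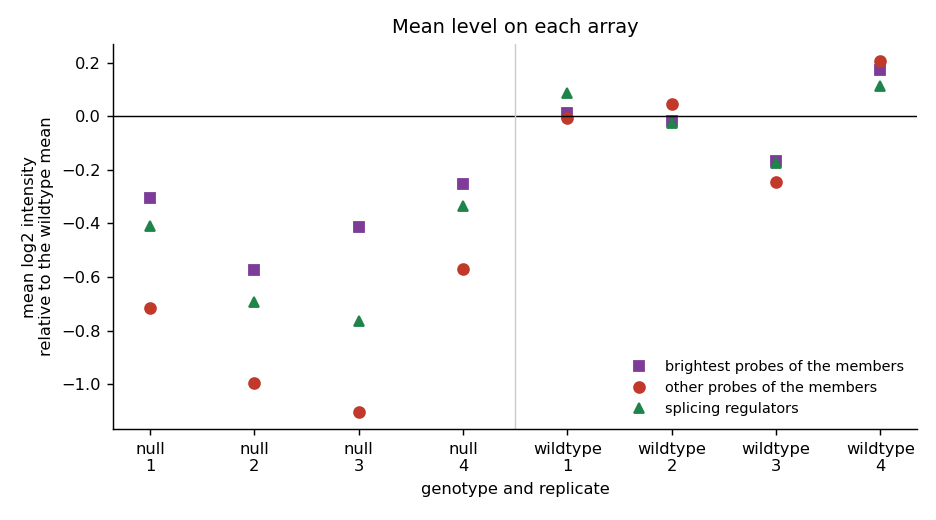
Mean log2 intensity on each array relative to the wildtype mean, for the 10 brightest and 18 other member probes and 35 splicing regulators. All 3 means lie below 0 on the 4 null arrays, the other member probes lowest, at -0.57 to -1.10.

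*Xist*, the RNA of the inactive X chromosome and so of female cells, moved with genotype as well. It read 9.71, 9.89, 9.17 and 9.85 in null cells, against 11.39, 11.99, 10.75 and 12.43 in wildtype cells. No array overlapped at this probe, the brightest of 4 (log2 -1.98, adjusted p = 0.00242). Without overlap, 2 others differed by -2.13 and -1.29, and ILMN_3022688 overlapped at -0.44 (adjusted p = 0.428). Of the Y-linked genes, *Eif2s3y* was at 1.03 (adjusted p = 0.0683), *Kdm5d* at 0.77 (adjusted p = 0.134) and *Uty* at 0.11 (adjusted p = 0.564). *Eif2s3y* read 10.79, 10.79, 11.10 and 10.84 in null cells, against 10.12, 9.96, 10.81 and 8.49 in wildtype cells. Wildtype replicate 4 stood apart: without it *Eif2s3y* was at 0.58 (adjusted p = 0.0647) and *Kdm5d* at 0.32 (adjusted p = 0.116), and without wildtype replicate 3 *Eif2s3y* passed at 1.36 (adjusted p = 0.0188). The sex of the embryos is not given. *Smc1a* and *Stag2* lie on the X chromosome. With *Xist* as a covariate 0 of the 28 probes were lower, where 0.514% of all probes were, and the member median was -0.23 (0 probes at an unadjusted p under 0.05 too).

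**Figure D5:**
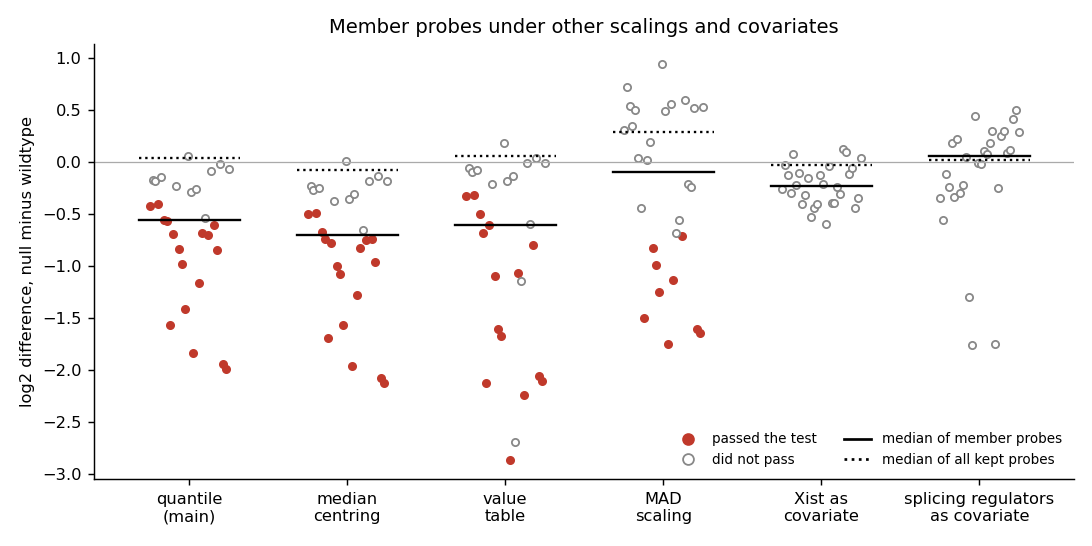
Log2 difference of the 28 member probes under other scalings, sources and covariates (red where the test was passed), with the median of the members (solid line) and of all kept probes (dotted line). The member median is -0.56 under quantile scaling and -0.09 under MAD scaling, where the median of all probes is 0.29. With either covariate 0 probes pass, where 0.514% (*Xist*) and 2.88% (splicing regulators) of all probes were lower.

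Each lower probe was set beside the probes of other genes whose values over the 8 arrays were most like it, by the mean absolute log2 difference after centring on the wildtype mean. The probe most like *Pds5b* belonged to *Usp1* (0.02), a deubiquitinase gene, followed by *Plk4*, a kinase gene of centriole duplication (0.04). *Top1* ILMN_2521065 was most like a probe of *Srsf10* (0.04), a splicing factor gene, and ILMN_1232251 most like *Apaf1* (0.06) and *Hnrnpa1* (0.08). *Stag2* ILMN_3123970 was most like *Sbno1* (0.06), and *Pds5a* most like *Taf5* (0.08), *Chd1* and *Dtl*. These are descriptions of likeness over 8 arrays that share their genotypes.

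Regulators of the ring outside the 10 genes were mixed, as counted under quantile scaling only. Of 14 other cohesin regulators kept, 5 were lower, 2 higher and 7 did not pass at their brightest probe, with a median difference of -0.12 beside 0.09 over all genes. Of all genes 16.8% were lower and 25.6% higher at their brightest probe, against which this and the next lists are read. *Wapl*, which encodes the factor that releases cohesin, was lower at 4 of 4 probes, by 1.14 on the log2 scale at the brightest (SE 0.26, adjusted p = 0.00823). Of these, ILMN_1242714 was detected on 0 null arrays and kept through its wildtype arrays alone, so the filter set its direction. *Esco2*, whose product acetylates SMC3 protein in S phase, read 7.92, 7.48, 7.35 and 8.47 in null cells, against 9.43, 9.40, 9.03 and 9.53 in wildtype cells. It was lower without overlap, by 2.90-fold (log2 -1.54, SE 0.23, adjusted p = 0.00153). *Sgo1* and *Sgo2a*, which protect cohesin at centromeres, and *Pttg1*, the securin gene, were the other falls, and *Mau2*, the partner of *Nipbl* in the loader, and *Chtf8* were higher (*Mau2* 0.47, adjusted p = 0.0192, at 1 of 3 probes). *Ctcf*, whose product halts loop extrusion, was at 0.00 (SE 0.09, adjusted p = 0.981). *Cdca5* (-0.14), the separase gene *Espl1* (0.04) and the deacetylase gene *Hdac8* (-0.10) did not pass, and *Esco1* was not kept. Of the meiotic subunits, *Stag3* did not pass and *Rec8* was higher, at 1.61 (adjusted p = 1.33e-05). The wildtype mean of *Rec8*, 4.90, lay near background, beside 4.88 for the undetected *Wapl* ILMN_1242714 in null cells. *Rec8* may thus have been kept through its null arrays alone, in which case the filter set its direction, so this p is no support. *Sgo1*, *Sgo2a*, *Pttg1*, *Chtf8*, *Stag3* and *Rec8*, and *Topors*, *Top3b* and *Rmi1* in the next list, were named after their values were seen, as were the Y-linked genes and the cell type markers.

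Among 8 other topoisomerase and end processing genes kept, 2 were lower (*Top2a* and *Topors*), 2 higher (*Top3b* and *Rmi1*) and 4 did not pass, with a median of -0.16. *Top3a* was at 0.22 (adjusted p = 0.145) and *Tdp2* was not kept. Of 14 condensin and SMC5/6 genes, the related SMC complexes, 8 were lower, 2 higher and 4 did not pass, with a median of -0.41. At their brightest probes *Smc2* and *Smc4*, the condensin arms, were lower by 1.92 and 0.88 (adjusted p = 0.00323 and 0.00967). *Smc5* and *Smc6* were lower there by 0.51 and 0.81 (adjusted p = 0.0117 and 0.0225). A second *Smc6* probe, ILMN_2546725, overlapped at -0.35 and did not pass (adjusted p = 0.0856), while the other probes of *Smc4* and *Smc5* were lower. *Smc2* was detected on 1 of 4 null arrays at its brightest probe and on 0 of 4 at its other, ILMN_1230786, whose direction the filter set. Of the cell cycle lists, 6 of 22 S phase genes were lower (27.3%) and 1 higher (median -0.15), and 9 of 25 G2 and M phase genes were lower (36.0%) and 0 higher (1 at an unadjusted p under 0.05; median -0.20). Of the 35 splicing regulators 17 were lower and 1 higher (median -0.31), and their member *Clk1* was lower by 2.21 (adjusted p = 0.00544). Of 5 nuclear retained RNAs 0 were lower (0 unadjusted), 1 was higher and 4 did not pass.

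Promoter sequence was available for 7 of the 10 genes, as RefSeq windows of build GRCm38.p6 that run from 250 bases before to 50 after the start of the gene. These windows were searched on both strands for 7 groups of motifs. The *Bapx1* words TAAGTG and TGAGTG were in 0 of the 7 windows, beside 23.9% of 32851 windows. The E2F words TTTCCCGC, TTTGGCGC, TTTCGCGC and TTTGCCGC were in 3 of 7, beside 2.26%, and CCAAT, the NF-Y word, was in 4 of 7, beside 37.4%. The CREB word TGACGTCA, the palindromic NRF1 word, the YY1 word AAGATGGC and the ETS word CCGGAAG were in 0 of 7. They are in 1.79%, 0.971%, 2.75% and 8.86% of all windows in turn, so 0 of 7 is not particular to the members. NF-Y words in *Pds5b*, *Smc1a* and *Stag1* fall in genes with lower probes as well and are not shown. At the brightest probes of *Smc1a* and *Stag1* the differences, 0.06 and -0.08, did not pass. The 3 stretches with an E2F word carry it in capitals, in reverse complement for *Pds5a*. They lie on chr5:65698324-65698353 (minus strand), chrX:152016448-152016477 (plus strand) and chr9:100643420-100643449 (plus strand).
Pds5a: ggcaggtcttgGCGCCAAAcgggtggcggc
Smc1a: cggcttgcactgcgctaTTTCCCGCgcggg
Stag1: aaaaggccacgTTTCCCGCgccgctgctgc
The word begins 106 bases before the start of *Pds5a* and 17 before that of *Stag1*, and at base 38 of *Smc1a*. A match is a description of letters in a window and no sign of binding.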

How the data were processed

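The intensity values come from GenomeStudio, where the authors subtracted background, and were deposited unnormalized. The deposited detection p-value columns hold 1 minus the detection p and were turned. The deposited log2 value table equals, by comparison, the log2 signal relative to the array median and a probe baseline of unstated source. Both tables were joined by the profile over 8 arrays, which placed 34536 of 45281 probes. Signals were corrected by normexp with detection p (offset 16), quantile normalized and fitted by lmFit and eBayes per probe in limma 3.58.1 (statmod 1.5.0, R 4.3.3), two-sided with Benjamini-Hochberg adjustment. On simulated data of 19841 probes, the fit found 28 of 67 true changes of 1.5-fold, 47 of 67 of 2-fold and 63 of 66 of 4-fold. It made 6 false calls among the 19641 unchanged probes. The simulated noise was independent between probes and few probes were changed, whereas 41.9% of the real probes were called and probes moved together over arrays. These counts thus check the code and are no error rate or power of this comparison. The members and lists were chosen with earlier results of these data known, the disagreement of the *Top1* probes among them. Named by rule are all members, 18 further genes of the lists where kept, and some of the 3 probes most like each lower probe. The targeted gene, markers and Y-linked genes were added, and other names are given as chosen later. Replicate numbers were not taken as pairs. No slide or scan position is given. Alternatives were other offsets, background corrections, scalings, filters, tests, covariates and left-out arrays.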

Additional observations from a re-analysis of the deposited data

Results flagged for a closer look

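In 56 groups of 4 arrays (28 probes in each genotype), 3 arrays stood far from the rest of their group by Dixon's criterion, and chance gives about 1 in 20. *Rad21* ILMN_2612856 was 8.65 in null replicate 2, where the other null arrays were 9.14 to 9.20. The same probe was 9.46 in wildtype replicate 4, where the others were 9.20 to 9.21. *Top2b* ILMN_1243403 was 10.42 in wildtype replicate 4, where the others were 10.21 to 10.24. Neither gene passed the test.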

How the results depend on the processing

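The 17 lower probes were 9 under MAD scaling, 11 of 20 with a detection p under 0.01 on all arrays, 3 of 10 with 1 probe per gene, and 0 with *Xist* or the splicing regulators as a covariate. Of all probes tested, 8.47%, 20.5%, 17.8%, 0.514% and 2.88% were lower under these settings in turn. The count was 13 to 18 with 1 array left out and 13 to 18 under the other settings apart from the methods' t-test, with 12 (18 unadjusted). No probe passed as higher under any setting run. The median difference of -0.56 was -0.094 under MAD scaling, -0.35 with the strict detection filter, -0.20 with 1 probe per gene, -0.23 with *Xist* and 0.064 with the splicing covariate, and -0.63 to -0.49 with 1 array left out. The 9 pairs were 4 of 11 with the strict filter, 0 with either covariate and 2 to 12 with 1 array left out. Of all pairs 27.5% differed with the strict filter, 0% with *Xist* and 0.102% with the splicing covariate. With 1 array left out it was 10.9% to 39% of all pairs. The 3 paralog pairs were run only with an offset of 50, without background correction, under MAD scaling and median centring, and in the value table. All passed there except *Pds5a* and *Pds5b* at offset 50. They were not run with covariates, other filters or left-out arrays. Under MAD scaling *Nipbl* ILMN_1226521, ILMN_2618447 and ILMN_3048503 turned to 0.31, 0.35 and 0.043 and *Pds5b* to 0.020. With the splicing covariate *Nipbl* ILMN_3124374 turned to 0.22, *Smc1a* ILMN_2610835 to 0.45, *Smc3* ILMN_2602761 and ILMN_2678413 to 0.11 and 0.18, *Stag1* ILMN_1233273 to 0.30, *Stag2* ILMN_1232962 and ILMN_3123970 to 0.30 and 0.087, and *Top1* ILMN_1232251 and ILMN_2521065 to 0.41 and 0.51. With *Xist*, *Stag2* ILMN_1232962 turned to 0.10. The cause was not tested. Deviations of same-numbered arrays correlated at 0.169, 0.0687, 0.378 and 0.408 over probes. All were above 0, and for null replicates 3 and 4 the wildtype array of the same number was the best match. No pairing is stated, so the numbers were not read as pairs in the main fit. With the replicate number as a block, 17 probes were lower and 9 pairs differed. Dim probes, detected on as few as 0 of 4 null arrays, limit their folds.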
